A study of Arabidopsis thaliana with 6 samples.

Results

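The 9 genes described here make very-long-chain fatty acids and turn them into the waxes of the plant cuticle: CER6 (AT1G68530), CER60 (AT1G25450), KCS1 (AT1G01120), FDH (AT2G26250), CER2 (AT4G24510), CER10 (AT3G55360), CER3 (AT5G57800), CER1 (AT1G02205) and CER4 (AT4G33790). They were matched by locus to the deposited tables of transcript models, which list 25964 loci and 30088 models, and 12 models belong to the 9 genes. All 9 had reads in all 6 libraries and all 9 were among the 16114 loci tested. RNA came from flower buds of Arabidopsis thaliana in the Columbia background, and messenger RNA was selected on oligo(dT) beads. The plants were either atcep1, a mutant of the papain-like cysteine protease gene CEP1, or wild type (WT), and the labels name no allele and no other transgene or treatment. Buds of each genotype were divided by anther development, with anther stages 5 to 6 in class A, anther stages 7 to 9 in class B and anther stages 10 to 11 in class C, called stages A, B and C here. Each genotype and stage was sequenced once, with no replicate of any single library, and the 3 stages of a genotype stand in as its samples in the tests of genotype. Nothing in the labels says how many plants were pooled or whether libraries came from separate plants.

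Fatty acid elongation adds carbons to an acyl chain in the endoplasmic reticulum in a cycle of condensation, reduction, dehydration and a final reduction. The condensing enzyme, a 3-ketoacyl-CoA synthase (KCS), sets which chains are extended, and the long chains are then converted to alkanes or to primary alcohols and their esters. Epidermal cells export these products as cuticular wax, and in the anther related lipids become part of the pollen coat. Arabidopsis cer (eceriferum) mutants were recognised by their bright, wax-poor stems, and loss of CER6 or CER1 also makes pollen fail to hydrate in dry air.

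In units of 1000000 uniquely mapped reads, the libraries held 4.14, 4.16 and 4.41 in atcep1 stages A, B and C, against 4.04, 4.10 and 4.25 in WT stages A, B and C. CEP1 itself had 4, 5 and 6 reads in atcep1, against 0, 1 and 6 reads in WT, so it was too low to check the genotype labels, and every direction below rests on those labels. All 4 markers of the epidermis, the cells that make the cuticle, were read in every library, with a summed level of 4113 to 5678 RPKM (reads scaled by the length of the model and by the library total) in atcep1, against 3606 to 4817 RPKM in WT. LTP1, a lipid transfer protein gene, gave 51.4% of that sum, and PDF1 most of the rest. The regulator ATML1 had a low deposited RPKM, at 6.15 to 7.95 in atcep1, against 4.62 to 5.88 in WT.

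The wax genes were higher in atcep1 than in WT. With stage and genotype in a single edgeR quasi-likelihood fit, 8 of 9 passed a Benjamini-Hochberg adjusted p of 0.05 as higher and 0 as lower, where 16.0% of all loci tested passed as higher and 11.5% as lower. Scaled by library totals without TMM factors, calls over all loci were 2246 higher and 2253 lower, against 2573 higher and 1859 lower with TMM factors. The median log2 fold change of the 9 genes was 1.42, beside -0.003 for all loci tested. For each of the 9 genes, all 3 atcep1 libraries lay above all 3 WT libraries in RPKM, a separation seen in 13.6% of loci tested. The 9 genes took 0.145, 0.138 and 0.169% of all reads in atcep1 stages A, B and C, against 0.0758, 0.0844 and 0.0855% in WT. In whole buds, fewer cells of a type and less RNA per cell cannot be told apart. A fold of at least 2, taken on log2(RPKM + 1) where the higher level was at least 5 RPKM, was reached by 6 of 9 genes at stage A, 5 at stage B and 6 at stage C, all higher in atcep1. The same fold was reached by 6.23% of loci with such a level at stage A, 6.64% at stage B and 8.15% at stage C.

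**Figure D1:**
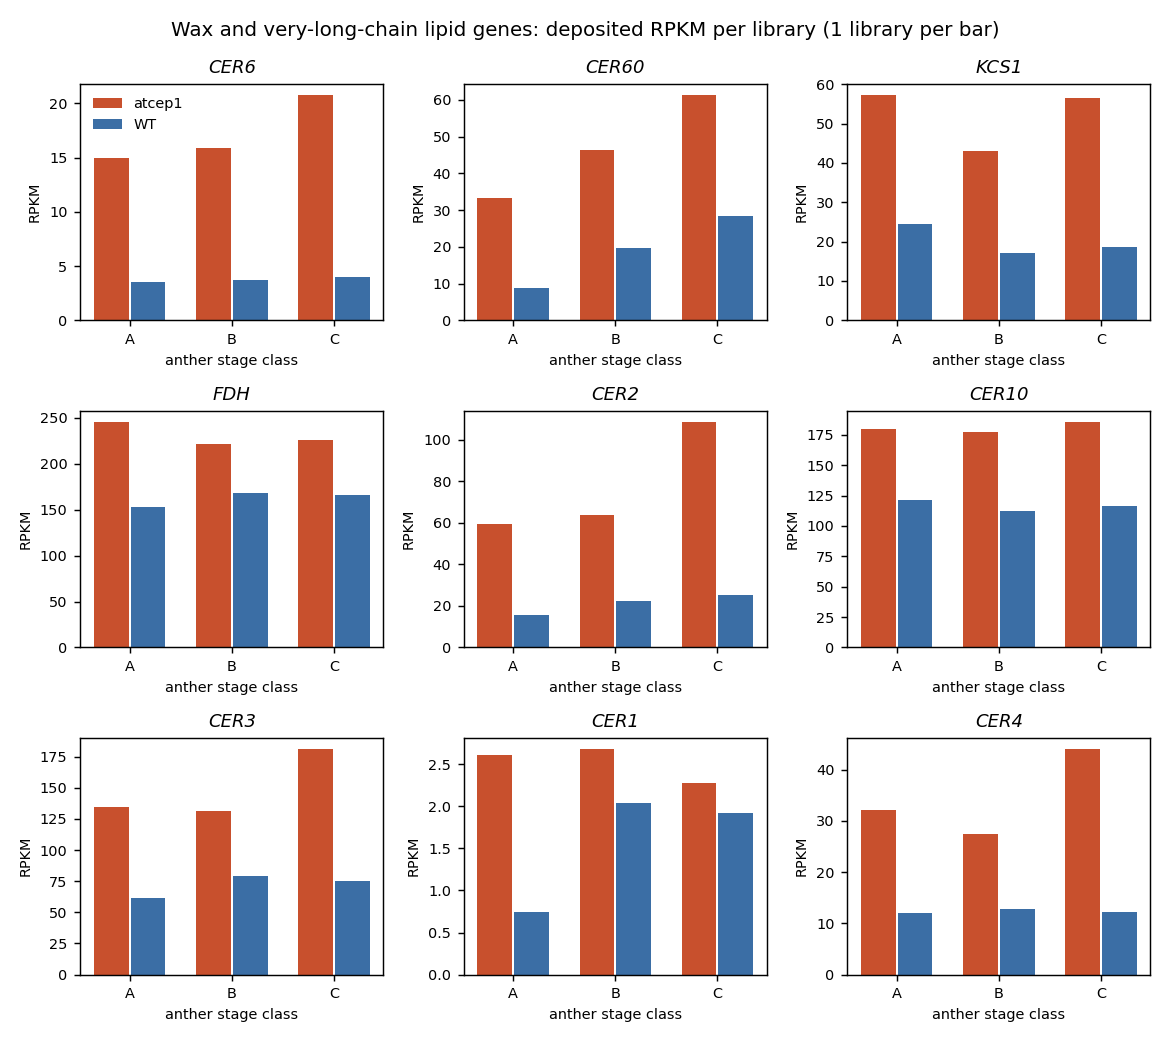
Level in RPKM on the vertical axis, from 0, for each of the 9 genes in the libraries of stages A, B and C, with the atcep1 bar left of the WT bar; each bar is 1 library. In every panel the lowest atcep1 bar is taller than the highest WT bar, most widely for CER6 (14.9 against 4.03 RPKM).

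Of the condensing enzymes, CER6 is the main stem and pollen KCS for the longest wax chains. It stood at 14.9, 15.8 and 20.8 RPKM in atcep1 stages A, B and C, against 3.55, 3.74 and 4.03 RPKM in WT. The WT libraries lay close together and the atcep1 libraries were about 4 to 5 times above them. On the log2 scale CER6 rose by 2.20 (SE 0.17, edgeR adjusted p = 1.13e-04), and 1.36% of loci tested had a higher value. The ratio of reads per library was 4.08 at stage A (exact 95% interval 2.68 to 6.40), 4.14 at stage B (2.76 to 6.38) and 5.05 at stage C (3.46 to 7.56). These intervals, here and below, cover counting error only, and not variation between plants or libraries, since each genotype and stage had 1 library. PCR copies of a fragment are not independent molecules, so the intervals may be too narrow even for counting error.

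CER60, also named KCS5, is the closest relative of CER6, with 81.3% identical coding bases, where the other pairs of the 4 KCS members had 61.3 to 63.8%. No 49-base window of one of these genes matched another of them within 2 mismatches, so reads of this length can be told apart between them. CER60 had 33.2, 46.3 and 61.4 RPKM in atcep1 stages A, B and C, against 8.89, 19.7 and 28.5 RPKM in WT. Its level climbed with stage in both genotypes, and the lowest atcep1 library lay just above the highest WT library. It rose by 1.42 in atcep1 on the log2 scale (SE 0.15, edgeR adjusted p = 3.94e-04). The read ratio was 3.74 at stage A (2.83 to 5.00), 2.35 at stage B (1.93 to 2.88) and 2.15 at stage C (1.83 to 2.54).

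KCS1, a condensing enzyme of broad expression, had 57.3, 43.0 and 56.6 RPKM in atcep1 stages A, B and C, against 24.4, 17.2 and 18.7 RPKM in WT. Both genotypes were lowest at stage B, and the genotypes did not overlap. The gene rose by 1.44 (SE 0.12, edgeR adjusted p = 1.41e-04). FDH (FIDDLEHEAD, KCS10) is an epidermal KCS whose loss lets floral organs fuse. It had the highest RPKM of the 9 genes in all 6 libraries, at 246, 222 and 226 RPKM in atcep1 stages A, B and C, against 153, 169 and 166 RPKM in WT. Its increase was the smallest of those that passed, at 0.56 (SE 0.10, edgeR adjusted p = 0.0050), and without stage A it was 0.48 with an adjusted p of 0.0714 (range over all alternatives 6.63e-04 to 0.0714). The read ratio of FDH was 1.60 at stage A (1.496 to 1.72), 1.31 at stage B (1.23 to 1.41) and 1.36 at stage C (1.27 to 1.45).

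CER2, a BAHD-family protein without a known catalytic role of its own in elongation, lets CER6 make longer chains. Its level was 59.5, 63.7 and 108 RPKM in atcep1 stages A, B and C, against 15.8, 22.4 and 25.3 RPKM in WT. The stage C library of atcep1 stood apart as the highest, and the lowest atcep1 library was 2.35 times the highest WT library. The log2 fold change was 1.90 (SE 0.14, edgeR adjusted p = 8.20e-05), and 2.09% of loci tested had a higher value. The annotated CER2 gene overlaps the opposite-strand gene AT4G24520 by 96 bases and a long noncoding RNA, AT4G07275, by 316 bases. The protocol does not mark strand, so reads in those bases cannot be told apart. AT4G24520 had 50 reads over all libraries, beside 1961 reads on CER2. For the noncoding RNA 0 reads were found, a value that also stands for a locus the deposited counts do not list.

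CER10 is the enoyl-CoA reductase that closes each elongation cycle and serves all chain lengths. Its level was 180, 177 and 185 RPKM in atcep1 stages A, B and C, against 122, 112 and 116 RPKM in WT. It was the steadiest of the 9 genes in atcep1, with a highest library 1.05 times the lowest, and in WT that factor was 1.08. The rise of 0.69 (SE 0.09, edgeR adjusted p = 0.00122) was among the smaller ones, with a read ratio of 1.48 at stage A (1.34 to 1.63), 1.58 at stage B (1.43 to 1.75) and 1.60 at stage C (1.45 to 1.76). It shares 27 bases with the opposite-strand gene AT3G55350, which had 701 reads over all libraries, beside 5043 on CER10.

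CER3 works with CER1 to turn very-long-chain acyl-CoA into alkanes, the main wax class of stems. CER3 had 135, 131 and 181 RPKM in atcep1 stages A, B and C, against 61.6, 79.4 and 74.9 RPKM in WT. It rose by 1.097 (SE 0.13, edgeR adjusted p = 6.70e-04). The read ratio was 2.19 at stage A (1.99 to 2.41), 1.65 at stage B (1.51 to 1.80) and 2.42 at stage C (2.22 to 2.63). With 1 library on each side, whether the ratio differs between stages was not tested.

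CER1 had few reads: 25, 26 and 23 in atcep1 stages A, B and C, against 7, 19 and 19 in WT, or 2.61, 2.68 and 2.27 RPKM in atcep1, against 0.742, 2.04 and 1.92 RPKM in WT. The atcep1 libraries were nearly level and WT stage A lay below the rest. Its log2 fold change was 0.76 (SE 0.34) and did not pass (edgeR adjusted p = 0.129; range over the alternatives 0.0837 to 0.473). The read ratio was 3.49 at stage A (1.47 to 9.55), 1.35 at stage B (0.72 to 2.58) and 1.17 at stage C (0.61 to 2.26). At this depth no difference was detected at stages B and C, where the intervals held 1, and without stage A the fitted value was 0.39.

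CER4 is an alcohol-forming fatty acyl-CoA reductase, which starts the primary alcohol branch of wax. It had 32.0, 27.5 and 44.0 RPKM in atcep1 stages A, B and C, against 12.0, 12.9 and 12.1 RPKM in WT. The WT libraries were nearly equal and the lowest atcep1 library was 2.13 times the highest of them. CER4 rose by 1.52 (SE 0.17, edgeR adjusted p = 5.18e-04), with a read ratio of 2.66 at stage A (2.06 to 3.46), 2.13 at stage B (1.65 to 2.77) and 3.62 at stage C (2.85 to 4.63).

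**Figure D2:**
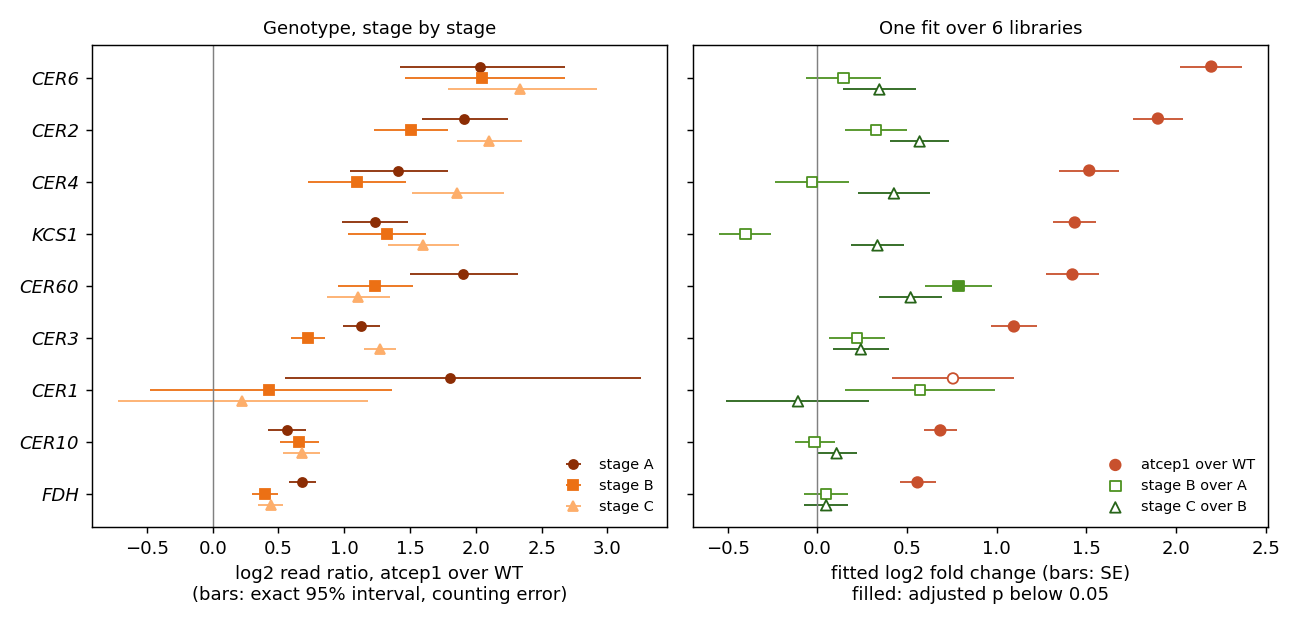
Left, log2 ratio of reads per library, atcep1 over WT, at stages A, B and C, with exact 95% intervals for counting error; right, fitted log2 fold changes with SE for genotype, stage B over A and stage C over B, filled where the adjusted p is below 0.05. The ratios of 8 genes lie right of 0 at every stage with their intervals, CER1 crosses 0 at stages B and C, and of the stage changes only that of CER60 from A to B is filled.

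Few of the 9 genes passed for a change between stages. From stage A to stage B, 1 of 9 passed as higher and 0 as lower, where 4.36% of loci tested passed as higher and 0.484% as lower. The gene was CER60, with a log2 fold change of 0.79 (SE 0.19, edgeR adjusted p = 0.0494), and with DESeq2, without TMM factors or with limma on log2(RPKM + 1) the count was 0. From stage B to stage C, 0 of 9 passed by edgeR in either direction, where 4.28% of loci tested passed as higher and 2.36% as lower. At an unadjusted p below 0.05, CER2, CER60 and KCS1 would count for that step, and DESeq2 and limma called 0. CER2 had the largest value for the step, 0.57 (SE 0.17, edgeR adjusted p = 0.0884). Levels still varied with stage within a genotype: the highest library of CER60 was 1.85 times the lowest in atcep1 and 3.21 times in WT, and for CER1, on few reads, these factors were 1.18 in atcep1 and 2.74 in WT. The median over the 9 genes was 0.15 for the first step and 0.34 for the second, beside 1.42 for genotype. Whether a genotype difference varies with stage could not be fitted, since 1 library per genotype and stage leaves no residual for it.

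Set against later WT buds, with the same libraries as above, atcep1 still had the higher level for all 9 genes. The share of all loci with a higher level was not counted. On RPKM + 1, the median log2 ratio of the 9 genes was 0.76 in atcep1 stage A over WT stage B. It was 0.80 in atcep1 stage B over WT stage C and 0.84 in atcep1 stage A over WT stage C. Loci with at least 5 RPKM in both libraries had medians of 0.0075, -0.033 and 0.031 in these comparisons. In atcep1 stage A over WT stage B, 4 of 9 genes reached a fold of 2, as did 5.29% of loci, and in atcep1 stage B over WT stage C 4 of 9 did, as did 6.87% of loci. In atcep1 stage A over WT stage C the count was again 4 of 9, beside 6.89% of loci, and 0 genes were lower by that fold in any of these comparisons. Of these last read ratios, CER6 had 3.64 (2.46 to 5.53), KCS1 3.06 (2.54 to 3.71), CER4 2.64 (2.05 to 3.41) and CER2 2.35 (1.96 to 2.84). The intervals of 7 of 9 genes lay above 1, and those of CER60 (1.17, interval 0.97 to 1.41) and CER1 (1.35, interval 0.71 to 2.60) held 1. For other loci such intervals were not worked out.

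Markers of anther cells moved with genotype as well. The genotype counts in this paragraph stand beside 16.0% of all loci tested called higher and 11.5% called lower. Summed tapetum markers stood at 2128, 1602 and 341 RPKM in atcep1 stages A, B and C, against 588, 491 and 71.6 RPKM in WT, and 7 of 7 tested rose (8 listed). Summed pollen markers stood at 103, 656 and 1602 RPKM in atcep1, against 12.5, 306 and 766 RPKM in WT, and 5 of 5 rose; VGD1 gave 81.4% of that sum. Meiosis markers stood at 24.4, 19.3 and 10.2 RPKM in atcep1, against 43.9, 32.8 and 19.5 RPKM in WT, and both of those tested fell. Green tissue markers summed to 1474, 1485 and 1438 RPKM in atcep1, against 2069, 2735 and 1251 RPKM in WT, and 0 of 2 tested passed by edgeR (1, LHCB1.1, at an unadjusted p below 0.05), while DESeq2 called 0 of 3 and limma called LHCA1 lower. Of 3 carpel markers tested 0 rose and 1 fell, and of 5 floral identity genes 2 rose and 0 fell. The part of these cells and of bud age in the wax gene differences was not tested. Between stages, 1 of 7 tapetum markers rose and 1 fell from A to B, where 4.36% of loci tested rose and 0.484% fell. The median log2 fold change of the tapetum markers was -0.72, beside 0.15 for the wax genes. From B to C, 5 of 7 fell and 0 rose, where 2.36% of loci tested fell and 4.28% rose. For this step the tapetum marker median was -2.60, beside 0.34 for the wax genes. The difference between the lists was not tested. Of 4 epidermis markers, ATML1 rose (0.58, SE 0.16, edgeR adjusted p = 0.0291) and PDF1 fell by 0.41 (SE 0.13, edgeR adjusted p = 0.0422).

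Judged by the deposited coverage, the RPKM of CER6 and CER1 rests on small parts of their transcripts. The deposited counts hold uniquely mapped reads per transcript model, and in both genes the deposited coverage of each model never exceeded the bases reached by 49-base windows that occur in no other model of the locus. The 7 other genes have 1 model, so any of their bases can be counted. For all further genes named here, markers and pathway lists included, the countable bases were not examined. A low RPKM or few reads of such a gene need not mean a low level. CER6 (chr1:25712588-25714807, TAIR10, minus strand) has 2 models. Model AT1G68530.1 is spliced, with 2 exons and 1861 bases, and AT1G68530.2 keeps the intron of 359 bases between start and stop codon, for 2220 bases. Of the 1813 windows of 49 bases in the spliced model, 44 occur in no other model, all across the exon junction. They reach 92 bases, 4.94% of the model, and the deposited coverage of the spliced model was at most 92 bases. Read positions are not given, and from this coverage those bases are inferred to carry every counted read of spliced CER6. These bases are shown from the RefSeq annotation of TAIR10.1, 5′ to 3′, with 8 bases on each side of the junction in capitals (chr1:25713284-25713734, minus strand, intron left out). The ends of the intron follow, with its GT and AG in capitals (chr1:25713629-25713688 and chr1:25713330-25713389).
CER6 spliced junction: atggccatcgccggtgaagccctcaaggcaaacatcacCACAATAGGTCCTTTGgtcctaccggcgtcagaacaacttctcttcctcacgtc
CER6 intron, first 60 bases: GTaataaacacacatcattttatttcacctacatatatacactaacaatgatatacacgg
CER6 intron, last 60 bases: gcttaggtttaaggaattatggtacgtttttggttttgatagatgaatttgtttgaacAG

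The spliced model of CER6 had 104, 106 and 158 reads in atcep1 stages A, B and C, against 20, 21 and 26 in WT. The intron-keeping model, with 403 windows of its own, had 13, 20 and 15 reads in atcep1, against 8, 9 and 7 in WT. Fitted alone, spliced CER6 rose by 2.46 (SE 0.19, edgeR adjusted p = 9.06e-05), and the intron-keeping model had a value of 1.00 that did not pass (SE 0.33, edgeR adjusted p = 0.0553). The odds ratio of spliced to intron-keeping reads, atcep1 over WT, was 3.17 at stage A (exact 95% interval 1.00 to 9.58), 2.26 at stage B (0.79 to 6.11) and 2.82 at stage C (0.88 to 8.24). All 3 were above 1, and the interval held 1 at stages B and C and lay just above it at stage A. On reads summed over the stages of a genotype, 368 spliced and 48 intron-keeping in atcep1 against 67 and 24 in WT, the odds ratio was 2.74 (1.50 to 4.92). These intervals compare the libraries with counting error only.

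Counted per 1000 windows of its own and 1000000 reads, spliced CER6 stood at 572, 579 and 814 in atcep1 stages A, B and C, against 113, 116 and 139 in WT. On the same scale FDH averaged 236 ± 13.0 in atcep1 and 167 ± 8.61 in WT (SD over stages, n = 3 each), and CER10 187 ± 4.39 in atcep1 and 121 ± 4.94 in WT. Spliced CER6 averaged 655 ± 138 in atcep1 and 123 ± 14.3 in WT, so that its level in atcep1 was the highest of the single models compared, whereas by RPKM CER6 ranked eighth of the 9 genes in all 6 libraries. In WT its level lay next to that of CER10, within their spread, and below FDH. As inferred above, only 44 start positions stand behind the CER6 value, and repeat copies of a fragment cannot be recognised in the deposited counts.

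**Figure D3:**
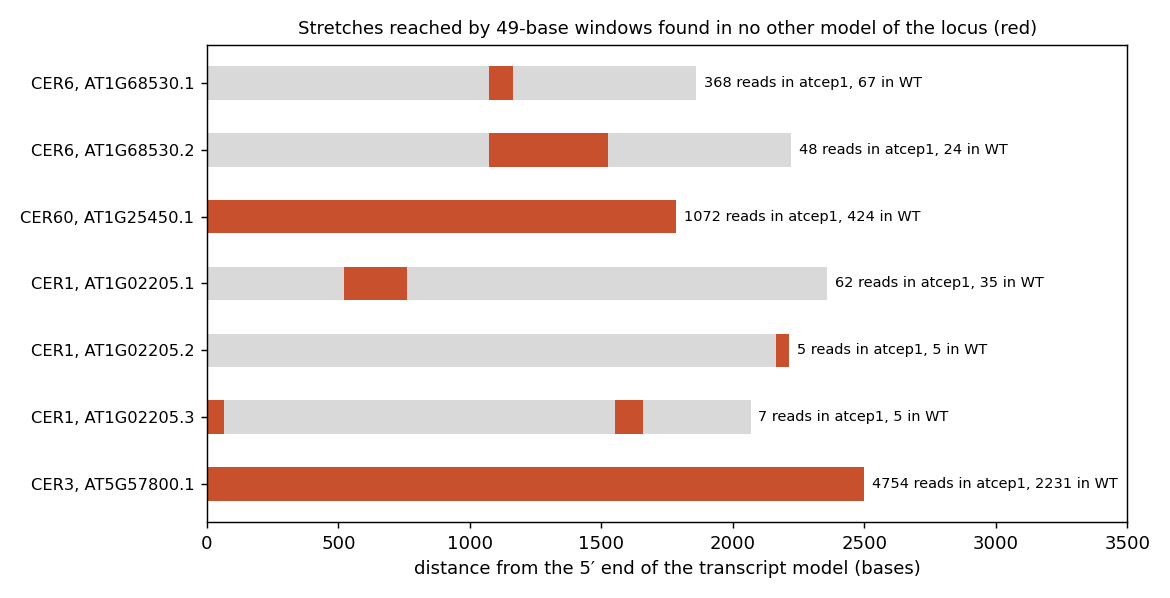
Horizontal bars are transcript models of CER6, CER60, CER1 and CER3, drawn to scale in bases from the 5′ end; red marks the stretches reached by 49-base windows found in no other model of the locus, and the text gives the reads summed over 3 atcep1 and 3 WT libraries. By inference from coverage, all 368 atcep1 and 67 WT reads of spliced CER6 fall on its short red stretch, while CER60 and CER3 are red throughout.

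**Figure D4:**
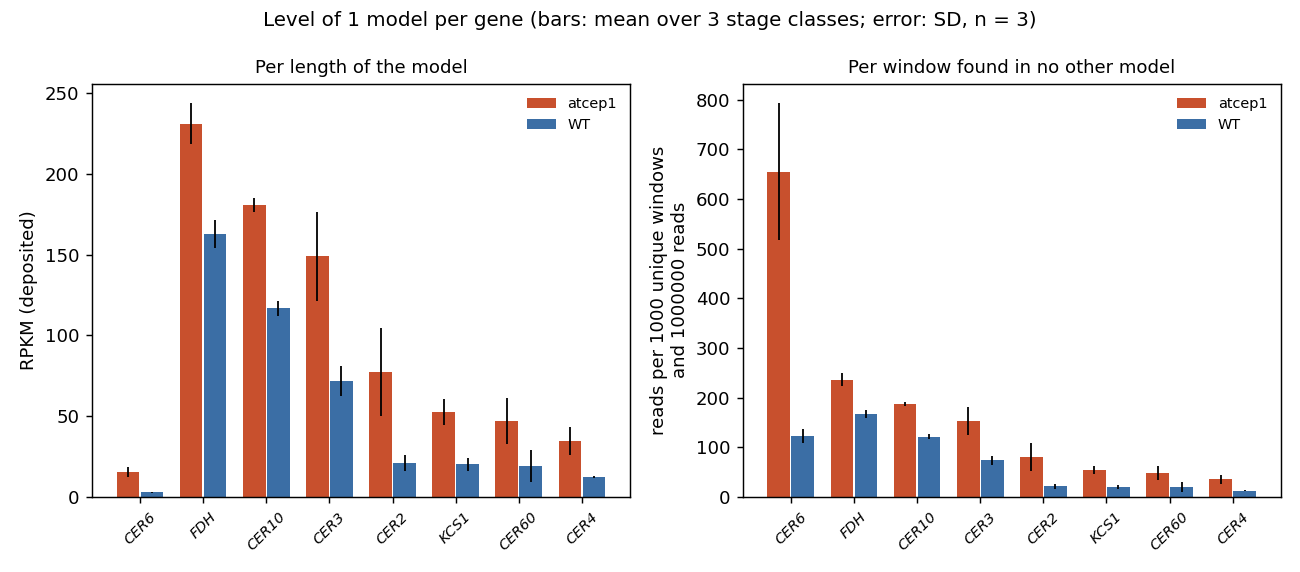
Mean level of 1 model per gene in atcep1 (left bar) and WT (right bar), with SD over 3 stages. The left panel gives deposited RPKM and the right panel reads per 1000 unique windows and 1000000 reads. CER1 is left out because its spliced model AT1G02205.2 has only 1 window of its own. CER6 is the lowest of the 8 genes by RPKM and the highest in atcep1 per unique window (655).

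CER1 (chr1:418748-422438, plus strand) has 3 models. Model AT1G02205.1 keeps an intron of 145 bases and has 193 windows of its own among 2309; AT1G02205.2, spliced, has 1 window of its own among 2165, and AT1G02205.3 has 78 among 2019. Reads of the spliced model AT1G02205.2 could therefore be counted at almost no position. Most CER1 reads were counted on the model that keeps this intron, which lies between start and stop codon. The intron is therefore shown (chr1:419530-419674, plus strand, TAIR10.1, GT and AG in capitals).
CER1 kept intron: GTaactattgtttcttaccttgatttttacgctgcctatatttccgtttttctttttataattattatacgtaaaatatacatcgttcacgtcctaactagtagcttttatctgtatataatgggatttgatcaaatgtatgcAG

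The intron-keeping model of CER1 had 21, 23 and 18 reads in atcep1 stages A, B and C, against 6, 13 and 16 in WT. Its log2 fold change was 0.85 (SE 0.36, edgeR adjusted p = 0.106). The spliced model AT1G02205.2 had 2, 2 and 1 reads in atcep1, against 1, 2 and 2 in WT. They covered 49 bases in each library, and the 1 window of its own lies at its 3′ end. Model AT1G02205.3 had 2, 1 and 4 reads in atcep1 stages A, B and C, against 0, 4 and 1 in WT. With so few reads and windows, the level of spliced CER1 transcript could not be measured from these counts. Every value given for CER1, also beside CER3, rests mainly on reads of its intron-keeping model.

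The other members lie at chr1:8938479-8940387 (CER60, minus strand), chr1:57269-59167 (KCS1, minus strand), chr2:11170418-11173142 (FDH, minus strand), chr4:12660749-12662656 (CER2, plus strand), chr3:20520930-20523014 (CER10, minus strand), chr5:23420209-23424052 (CER3, plus strand) and chr4:16204157-16207947 (CER4, minus strand), all in TAIR10. The L1 box, TAAATGCA or TAAATGTA on either strand, is the word bound by the epidermal factors ATML1 and PDF2. It occurred in the 250 bases before the RefSeq gene start (TAIR10.1) of 1 of 9 members, FDH, and of 4.49% of 27443 protein-coding genes. Whether the word bears on the level of FDH, the member with the highest RPKM, was not tested. The 100 bases of FDH before that start are shown with the word in capitals (chr2:11173279-11173378, minus strand). The first base of the word lies 54 bases before the start.
FDH upstream: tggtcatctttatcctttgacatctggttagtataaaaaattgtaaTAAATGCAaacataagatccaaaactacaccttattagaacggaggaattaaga

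The rest of the pathway, from lists chosen with earlier results of these data known, was mostly higher in atcep1 too. Of 17 other KCS genes, 14 were tested, 10 rose and 0 fell, with a median log2 fold change of 0.76. As above, 16.0% of all loci tested were called higher and 11.5% lower, and the counts of each list below stand beside these shares. KCS7 rose by 1.81 (SE 0.22, edgeR adjusted p = 7.18e-04), KCS13 by 1.38 (SE 0.14), KCS16 by 1.37 (SE 0.40) and KCS15 by 1.35 (SE 0.11). KCS16 had few reads, 5, 18 and 80 in atcep1 stages A, B and C, against 6, 10 and 20 in WT. At stage A it was lower in atcep1 (0.676 RPKM) than in WT (0.831 RPKM). FAE1, the seed KCS, had 0 reads in all libraries. From stage B to stage C, KCS7 fell by 2.05 (SE 0.29, edgeR adjusted p = 0.00507) and KCS15 fell by 2.01 (SE 0.14, edgeR adjusted p = 4.39e-04), a step at which 0 of the 9 members passed.

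Among 6 genes for the elongation partners, 4 were tested, 3 rose and 0 fell, with a median of 0.69. CER26-LIKE, a relative of CER2, rose by 2.26 (SE 0.18, edgeR adjusted p = 1.13e-04) and stood at 135, 97.1 and 27.5 RPKM in atcep1 stages A, B and C, against 38.1, 19.2 and 3.58 RPKM in WT. It fell by 1.88 (SE 0.23, edgeR adjusted p = 0.00288) from stage B to stage C, while CER2 had 0.57 for that step. The ketoacyl reductase gene KCR1, which acts just after the KCS, rose by 0.54 (SE 0.10, edgeR adjusted p = 0.00637) and its relative KCR2 by 0.49 (SE 0.14).

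Of 9 wax modification genes, 6 were tested, 4 rose and 0 fell, with a median of 0.69. The acyl-CoA synthetase gene LACS1 rose by 1.02 (SE 0.23), the midchain alkane hydroxylase gene MAH1 by 0.99 (SE 0.27), the wax ester synthase gene WSD1 by 0.93 (SE 0.11, edgeR adjusted p = 6.72e-04) and the reductase gene FAR1 by 0.46 (SE 0.11). FAR4 had 0 reads. Of 4 export genes, 2 rose and 0 fell, with a median of 0.29. These were the transporter genes ABCG12, also named CER5, by 0.89 (SE 0.09, edgeR adjusted p = 4.29e-04) and ABCG11 by 0.53 (SE 0.10), whereas the lipid transfer protein gene LTPG1 had -0.01 (SE 0.11) and did not pass.

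Of 11 regulators of wax, 7 were tested, 4 rose and 0 fell, with a median of 1.17. MYB96, an activator of wax genes in drought, rose by 1.91 (SE 0.35, edgeR adjusted p = 0.00520). Its deposited RPKM was low, at 5.404, 4.27 and 6.36 in atcep1 stages A, B and C, against 2.41, 1.12 and 0.944 in WT. MYB16 rose by 1.34 (SE 0.41), SHN1, an activator of cuticle genes, by 1.32 (SE 0.11, edgeR adjusted p = 1.51e-04) and MYB106 by 1.17 (SE 0.27). SHN1 stood at 75.0, 112 and 149 RPKM in atcep1 stages A, B and C, against 26.0, 47.7 and 69.4 RPKM in WT. Like CER60 it passed for the step from A to B (0.75, SE 0.14, edgeR adjusted p = 0.0184).

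Cutin, the polyester that holds the wax, has its own enzymes, and of 14 such genes, all tested, 10 rose and 0 fell, with a median of 0.93. The cytochrome P450 genes CYP86A7 and CYP77A6 rose by 2.69 (SE 0.15, edgeR adjusted p = 3.30e-05) and by 2.09 (SE 0.14, edgeR adjusted p = 6.47e-05), CYP86A4 by 1.72 (SE 0.16) and the acyltransferase gene GPAT6 by 1.38 (SE 0.19). Over the 6 lists, 33 of 49 tested genes rose and 0 fell, beside the 16.0% of all loci tested that were called higher and 11.5% called lower. DESeq2 called 23 of the 49 higher, and the fit without the stage term called 8, with 296 of 16114 loci called higher in that fit. The tapetum and pollen marker levels given above were higher in the same atcep1 libraries, and their part in these counts was not tested.

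**Figure D5:**
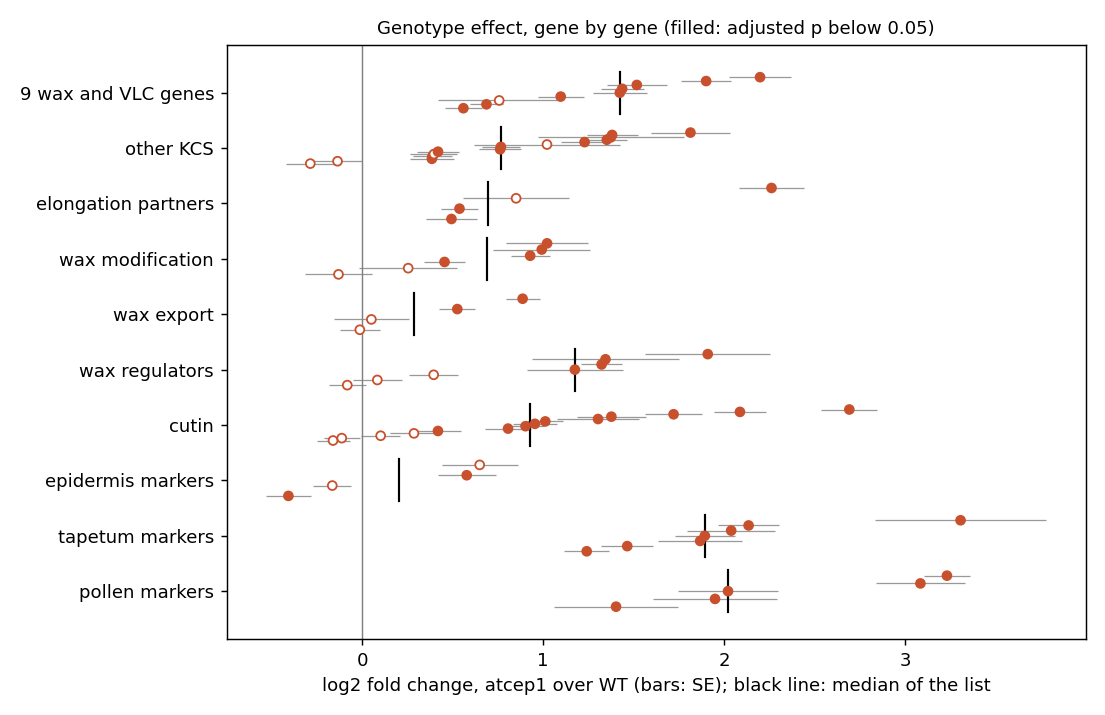
Each point is the fitted log2 fold change of a gene, atcep1 over WT, with its SE, grouped by list; filled points have an adjusted p below 0.05 and the black line is the median of the tested genes of the list. Medians lie at 1.42 for the 9 wax genes, between 0.29 and 1.17 for the pathway lists, at 0.21 for epidermis markers, and at 1.89 and 2.02 for tapetum and pollen markers.

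Across the 6 libraries most members followed each other closely, while CER1 did so less, as did CER60 with some members. CER1 had only 7 to 26 reads per library, most of them on its intron-keeping model. Its r therefore describes few reads and not the spliced transcript. On log2(RPKM + 1), Pearson's r of the 28 pairs without CER1 ran between 0.66 (CER60 with KCS1) and 0.99 (CER2 with CER3), and that of the 8 pairs with CER1 between 0.49 and 0.87. These are descriptions over 6 points that share genotype and stage. Among 12885 other loci with a mean of at least 5 RPKM, the closest to CER6 were MIPS1, a myo-inositol phosphate synthase gene (r = 0.998), AT1G75900, a GDSL-type lipase gene (0.996), and SKS6 (0.995), and 234 loci had r above 0.95. MIPS1 stood at 124, 137 and 151 RPKM in atcep1 stages A, B and C, against 53.8, 58.8 and 59.3 RPKM in WT. The closest to CER1 were AT1G72900 (r = 0.989), AT3G56010 (0.981) and AT3G18560 (0.979), and 15 loci had r above 0.95.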

How the data were processed

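The authors deposited, per library, the count of uniquely mapped reads, the length, the percent of bases covered and the RPKM of each transcript model, per the file headers. TAIR10 is the build per the submitters' processing notes, and the aligner is not given in the sources used here. Reads and RPKM were summed over the models of a locus. Models listed in no row of a library were set to 0. For 17722 models with 1 read, the median covered stretch was 49 bases, which set the window length. Genotype and stage steps came from edgeR 4.0.16 (R 4.3.3; quasi-likelihood F test, additive stage and genotype, 2 residual degrees of freedom, filterByExpr, TMM factors), Benjamini-Hochberg adjusted over 16114 loci, tested on simulated data. SEs were derived from F and the log2 fold change. DESeq2 1.42.0 and limma 3.58.1 gave alternatives. P-values rest on the spread of the genotype difference over the stages. The edgeR fit draws the spread of each locus towards a trend over all loci. Its p-values therefore also rest on other loci, beyond the 2 residual degrees of freedom. Ratios of reads carry exact conditional binomial 95% intervals (SciPy 1.17.1). All 12 models were rebuilt at their deposited length from RefSeq exons (TAIR10.1), and of these windows 0 matched exactly elsewhere in the genome. Named genes are the 9 members, up to 4 called genes per list and direction and those never read, and the 3 loci most like CER6 and CER1. Members and lists were chosen with earlier results of these data known.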

Additional observations from a re-analysis of the deposited data

How the results depend on the processing

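Over 10 alternatives for each of the 9 genes, 88 of 90 genotype values kept their direction and their side of the threshold, 2 no longer passed and 0 reversed. The 2 were FDH without stage A (0.48, adjusted p = 0.0714) and CER60 without the stage term (1.36, adjusted p = 0.136). The count of wax genes called higher was 8 with DESeq2, without TMM factors, without a filter, with limma at either pseudocount, without organelle genes and with each model fitted alone, and 7 without the stage term, that is, without the replicate block that pairs libraries by stage. Leaving out each stage in turn gave 7 to 8 wax genes and 25 to 32 pathway genes. Without the stage block 8 pathway genes were called in place of 33. Over all loci, edgeR called 2573 higher and 1859 lower, DESeq2 1512 and 724, the fit without the stage block 296 and 199, and the fit without stage A 1583 and 727. For the step from A to B, the call of CER60 was lost (a count of 0) with DESeq2, without TMM factors and with limma on log2(RPKM + 1). Over the 3 equal stages 17 of 27 wax gene ratios were at least 2-fold. Against the next WT stage, an alternative chosen after seeing the data, 8 of 18 were. Levels per unique window, also chosen after seeing the data, are given beside RPKM for CER6. The cause of these changes was not tested. CER1 had 7 to 26 reads per library, and its read ratio intervals held 1 at stages B and C.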
